A study of Mus musculus with 72 samples.

Results

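The 32 genes described here encode subunits of the receptors for glutamate and GABA, the main excitatory and inhibitory transmitters of the brain. They were chosen by name, as the rows of the count table whose Ensembl identifier carries the symbol of a listed subunit in the GRCm38 annotation. The table holds 35275 gene identifiers, each of the 32 symbols matched 1 of them, and each of the 32 passed the filter on low counts. They comprise 4 AMPA, 5 kainate and 6 NMDA receptor subunits, 6 metabotropic glutamate receptors, 9 GABA-A subunits and 2 GABA-B subunits.

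AMPA, kainate and NMDA receptors are cation channels opened by glutamate, and the NMDA type also carries calcium and is a classical mediator of excitotoxic injury in stroke. GABA-A receptors are chloride channels, whereas GABA-B and metabotropic glutamate receptors act through G proteins. Most subunits are made mainly by neurons, while some, such as mGluR3, are also made by astrocytes.

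The study combined intermittent fasting with experimental stroke in C57BL/6 mice aged 7 months. Stroke was produced by occlusion of the middle cerebral artery (MCAO) on 1 side of the brain for 1 h, and a coronal slice from the middle of the cerebrum on that side was taken for mRNA sequencing. The 6 stages were sham surgery, ischemia for 1 h with no reperfusion, and reperfusion lasting 3, 12, 24 or 72 h. The 4 feeding regimens were ad libitum (AL), every-other-day fasting (EOD, 24 h without food and then 24 h of free feeding), daily fasting of 12 h (IF12) and daily fasting of 16 h (IF16), and the daily fasts ran for 4 months before surgery. Each of the 24 combinations has 3 libraries, so a stage has 12 libraries and a regimen 18. The slice spans cortex, striatum and deeper regions without separation of the infarct from the tissue around it. The comparisons asked how receptor expression changed after ischemia and reperfusion, and whether fasting altered the level or the change.

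Library totals ran from 16735707 to 24763161 counts, and 17268 genes passed the filter on low counts over the 72 libraries. Whether a group's 3 libraries are from 3 different animals is not stated in the labels. A p-value therefore measures a difference against the spread among these samples, and that spread may be technical. Levels are CPM, counts scaled to library size with the trimmed mean of M values (TMM). Of a stage's 12 libraries the lowest, median and highest are given, followed by the log2 fold change with its standard error and the adjusted p of edgeR's quasi-likelihood test. A gene was called at an adjusted p under 0.05 over all genes tested. EOD replicate 2 at 72 h stood apart from the rest. Its 32 receptor genes summed to 2598 CPM, the lowest of the 72 libraries, and its 4 choroid plexus markers to 9982 CPM, against 4478 CPM in the next library, EOD replicate 2 at 3 h. EOD replicate 3 at 12 h had a receptor sum of 3032 CPM and a choroid plexus sum of 4036 CPM. IF12 replicate 2 at 72 h had the lowest sum of 9 markers of striatal neurons, 174 CPM. Counts below are also given without the 3 libraries richest in choroid plexus markers where that moves them by over 1.5 times.

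In sham brain, the level per kilobase was highest for Gabbr1, the GABA-B subunit that binds GABA. Its median over the 12 sham libraries was 595 FPKM, with a range of 565 to 630.5 FPKM. Grin1, the obligatory NMDA subunit, followed at 144 FPKM, Gabbr2, the GABA-B subunit that couples to G proteins, at 124 FPKM, Gria1, an AMPA subunit, at 119 FPKM and Grik5, a kainate subunit, at 103 FPKM. The ranges of Gabbr2 (100.1 to 159 FPKM) and Gria1 (81.1 to 143 FPKM) overlapped those of Grin1 (134 to 161 FPKM) and Grik5 (96.2 to 119 FPKM), so of these 5 genes Gabbr1 alone stood clear of the next in order. The lowest levels were those of Grik1, a kainate subunit, at 3.16 FPKM, Gabrg1, a GABA-A gamma subunit, at 4.45 FPKM, and Grm8, a presynaptic metabotropic receptor, at 4.76 FPKM. These levels rest on the gene lengths implied by the deposited FPKM, which were 19.2 to 116% of the annotated exons of a member. With the annotated exons as length, Gabbr1 stayed highest at 137 FPKM and Grik1 lowest at 1.28 FPKM, while Grik5 moved to rank 2 at 76.4 FPKM and Grin1 to rank 5 at 43.5 FPKM. Changes between stages within a gene do not depend on that length.

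The promoter windows of Gria2, Grin1 and Gabbr1 are shown because each encodes a subunit that sets the properties or the assembly of its receptor type. They are the 250 bases upstream of the RefSeq start on build GRCm38.p6, 5′ to 3′ along the gene. Capitals mark the letters TGACG, the core of a cyclic AMP response element, on either strand (written CGTCA on the other strand), or CANNTG, an E-box.
Gria2, chr3:80802836-80803085, minus strand: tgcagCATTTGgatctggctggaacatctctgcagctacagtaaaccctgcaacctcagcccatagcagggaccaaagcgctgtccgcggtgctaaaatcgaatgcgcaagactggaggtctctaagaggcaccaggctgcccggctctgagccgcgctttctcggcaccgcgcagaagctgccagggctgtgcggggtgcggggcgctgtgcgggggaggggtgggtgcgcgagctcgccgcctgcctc
Grin1, chr2:25319188-25319437, minus strand: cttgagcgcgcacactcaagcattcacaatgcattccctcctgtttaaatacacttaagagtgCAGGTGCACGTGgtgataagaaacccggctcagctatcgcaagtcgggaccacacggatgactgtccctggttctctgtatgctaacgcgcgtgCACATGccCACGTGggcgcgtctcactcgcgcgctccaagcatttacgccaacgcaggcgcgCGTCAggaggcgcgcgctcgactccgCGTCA
Gabbr1, chr17:37045716-37045965, plus strand: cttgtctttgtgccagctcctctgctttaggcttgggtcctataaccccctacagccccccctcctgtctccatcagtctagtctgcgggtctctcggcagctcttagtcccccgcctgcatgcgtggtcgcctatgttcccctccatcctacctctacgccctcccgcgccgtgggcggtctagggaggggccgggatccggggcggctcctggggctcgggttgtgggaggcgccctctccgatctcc

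The Grin1 window held 2 TGACG matches and 4 E-box matches, the Gria2 window 1 E-box match, and the Gabbr1 window neither. RefSeq windows were at hand for 23 members, some with more than 1 start, giving 30 windows, and for 32851 windows of all genes. TGACG was present in 2 of the 30 member windows, those of Grin1 and Grm8, and in 17.8% of all windows. An E-box was present in 10 of the 30 member windows and in 66.2% of all windows. The full cyclic AMP response element TGACGTCA was in none of the 30 member windows and in 1.5% of all windows. The AP-1 motif TGANTCA was in 1 member window, of Grm8, and in 6.70% of all windows. All motifs were searched on both strands, and a CRE match contains a TGACG match. Median GC content was 61.6% over the member windows and 52.4% over all windows. A match is a description of letters, and no binding was measured here.

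With the regimens averaged, the receptor genes were lowest at 24 h of reperfusion. There 22 of the 32 fell and none rose, against 24.3% of all genes called lower. The median log2 fold change of the 32 was -0.58, beside 0.00 over all genes, and 28 of the 32 estimates were negative. After ischemia without reperfusion no member was called by edgeR or by DESeq2, 0 had an unadjusted p under 0.05, and 0.0232% of all genes were called lower. At 3 h 4 members fell, against 11.1% of all genes, and at 12 h 7 fell, against 9.82%. At 72 h 8 fell, against 11%. No member rose against sham in any of these 5 comparisons, which share the same 12 sham libraries. Of all genes, 0.139%, 21.8%, 21.6%, 49.8% and 27.2% were called in either direction, in order from ischemia alone to 72 h. In tissue of mixed cells, fewer cells of a type and less RNA per cell cannot be told apart.

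**Figure D1:**
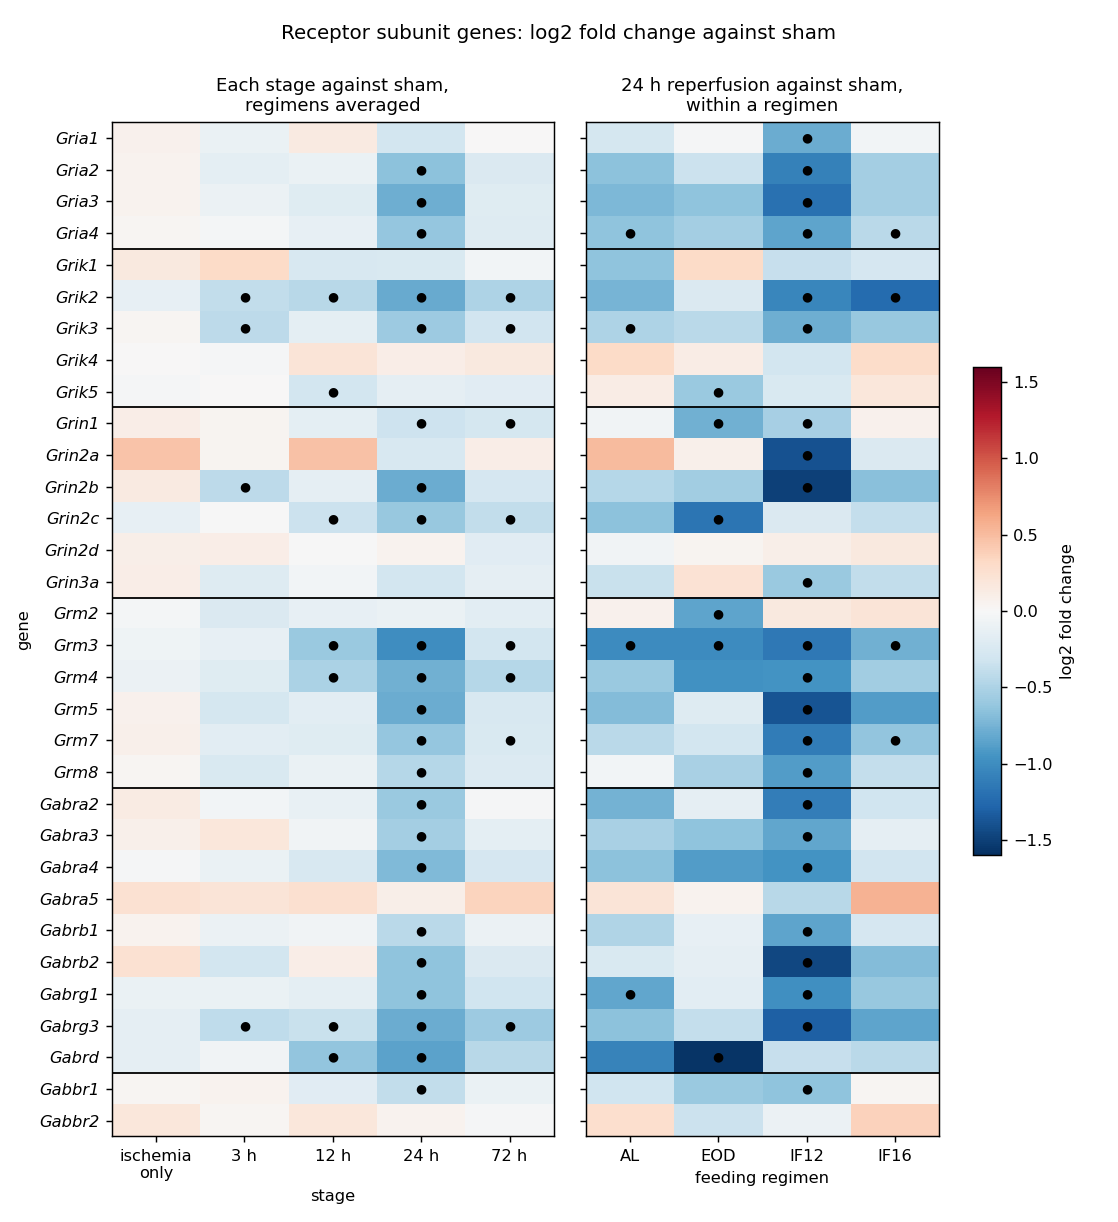
Log2 fold change against sham of the 32 receptor genes (rows, grouped by class), with the 4 regimens averaged at each of the 5 later stages (left) and within each regimen at 24 h (right). A black dot marks an adjusted p under 0.05, which 22 genes have at 24 h with the regimens averaged, and Grm3 is the gene with a dot in each of the 4 regimens.

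The 24 h count held without any single library. It lay between 22 and 24 over the 72 fits that left out 1 library, and the 22 genes kept their calls in each of those fits. Without the 3 choroid-rich libraries it was 24, with Gria1 and Grin3a added.

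Of the AMPA receptor subunits, 3 of 4 fell at 24 h, with a class median of -0.64. Gria2 encodes the subunit that makes AMPA receptors impermeable to calcium. It lay at 351, 402 and 562 CPM in sham and at 173, 242 and 519 CPM at 24 h (-0.66 ± 0.12, adjusted p = 2.27e-05). At 24 h 11 of 12 libraries lay below the lowest sham library, and the exception, IF16 replicate 3, lay within the upper part of the sham range. Gria3, which like Gria2 forms mixed channels with other AMPA subunits, lay at 125, 145 and 186 CPM in sham and at 53.4, 83.6 and 179 CPM at 24 h (-0.78 ± 0.15, adjusted p = 2.92e-05). Gria4, an AMPA subunit of interneurons and thalamus among other sites, went from 54.0, 70.1 and 75.1 CPM to 33.8, 44.6 and 60.2 CPM (-0.62 ± 0.12, adjusted p = 3.54e-05). For both genes, too, 11 of 12 libraries were under the whole sham range and IF16 replicate 3 was the highest at 24 h. Gria1, a major AMPA subunit of the forebrain, was at 301, 397 and 489 CPM in sham and at 214, 289 and 663 CPM at 24 h, and was not called (-0.29 ± 0.15, adjusted p = 0.0982). Its 24 h libraries reached both below and above the sham range.

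Kainate receptor subunits divided by gene, with 2 of 5 lower at 24 h and a class median of -0.25. Grik2, the GluK2 channel subunit, lay at 25.7, 36.2 and 66.2 CPM in sham and at 10.9, 20.8 and 32.4 CPM at 24 h (-0.81 ± 0.13, adjusted p = 2.23e-06). All 12 libraries were under the sham median, though the ranges overlapped. Grik3, the GluK3 channel subunit, lay at 91.2, 113 and 136 CPM in sham and at 54.0, 77.2 and 88.3 CPM at 24 h (-0.58 ± 0.12, adjusted p = 6.73e-05). It was the only member whose 12 libraries at 24 h all lay below all 12 sham libraries, which held for 1.11% of all genes. Grik1 (-0.25 ± 0.13, adjusted p = 0.0995), Grik4 (0.10 ± 0.12, adjusted p = 0.509) and Grik5 (-0.14 ± 0.09, adjusted p = 0.192) were not called. Grik4 and Grik5 encode the high-affinity kainate subunits, which need Grik1, Grik2 or Grik3 products to form channels.

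Among NMDA receptor subunits 3 of 6 fell at 24 h, with a class median of -0.31. Grin2b encodes GluN2B, a glutamate-binding subunit that gives slow channels. It lay at 293, 364 and 489.5 CPM in sham and at 107, 219 and 379 CPM at 24 h (-0.80 ± 0.16, adjusted p = 4.01e-05), with 9 of 12 libraries under the sham range. Grin2c, the GluN2C subunit, known from the cerebellum, thalamus and astrocytes, went from 83.7, 93.6 and 112 CPM to 40.5, 59.9 and 91.6 CPM (-0.61 ± 0.12, adjusted p = 3.05e-05). At 24 h 10 of 12 libraries were under the sham range. Grin1, the obligatory subunit that binds glycine, had the smallest of the 3 changes. It was at 393, 428 and 475 CPM in sham and at 229, 299 and 708 CPM at 24 h (-0.33 ± 0.10, adjusted p = 0.00466). The groups overlapped, since 9 libraries lay under the sham range and 2 over it, the highest being IF16 replicate 1. Grin2a, the GluN2A subunit, had the widest spread, with 10, 33.1 and 57.7 CPM in sham and 9.09, 19.6 and 61.8 CPM at 24 h (-0.26 ± 0.28, adjusted p = 0.457). Grin2d, the GluN2D subunit of interneurons (0.05 ± 0.08, adjusted p = 0.583), and Grin3a, a subunit that lowers calcium flux (-0.29 ± 0.13, adjusted p = 0.0726), were not called either.

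Metabotropic glutamate receptors fell in 5 of 6 cases at 24 h, with a class median of -0.70. Grm3, which encodes mGluR3, a receptor of astrocytes and neurons that inhibits adenylyl cyclase, had the lowest log2 fold change and the smallest adjusted p of the 32. It lay at 45.6, 59.7 and 81.4 CPM in sham and at 20.2, 28.1 and 52.8 CPM at 24 h (-0.99 ± 0.12, adjusted p = 2.61e-09). All but IF16 replicate 3 were under the sham range at 24 h. Grm5, the mGluR5 receptor that couples to phospholipase C, went from 124, 147 and 247 CPM to 57.3, 75.5 and 189 CPM (-0.80 ± 0.16, adjusted p = 7.15e-05). Grm7, a presynaptic receptor, went from 32.5, 37.7 and 47.6 CPM to 15.6, 25.6 and 37.8 CPM (-0.62 ± 0.10, adjusted p = 7.48e-07). For both genes 11 of 12 libraries lay under the sham median, and the highest again was IF16 replicate 3. The presynaptic receptors Grm4 (-0.77 ± 0.17, adjusted p = 0.000159) and Grm8 (-0.46 ± 0.12, adjusted p = 0.00202) also fell, while Grm2, the close relative of Grm3, was not called (-0.11 ± 0.12, adjusted p = 0.451).

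Of the GABA-A subunits 8 of 9 fell at 24 h, with a class median of -0.64. Gabrd encodes the delta subunit of receptors outside the synapse, which carry tonic inhibition. It lay at 60.0, 89.8 and 117 CPM in sham and at 33.8, 42.1 and 85.9 CPM at 24 h (-0.86 ± 0.17, adjusted p = 5.78e-05). All 12 libraries were under the sham median, and 9 were under the sham range. Gabrg3, a gamma subunit, went from 21.3, 28.4 and 45.5 CPM to 13.4, 16.6 and 24.9 CPM (-0.80 ± 0.13, adjusted p = 2.86e-06). Gabrg1, another gamma subunit, went from 16.1, 21.5 and 31.3 CPM to 8.55, 13.8 and 22.5 CPM (-0.65 ± 0.13, adjusted p = 5.07e-05). In both the 24 h libraries were low against sham with some overlap.

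The alpha subunit genes Gabra2, Gabra3 and Gabra4, which help form the GABA site, fell by 0.54 to 0.71 on the log2 scale, with Gabra3 at -0.54 ± 0.12 (adjusted p = 0.000148) and Gabra4 at -0.71 ± 0.15 (adjusted p = 0.000122). The beta subunit genes Gabrb1 (-0.43 ± 0.09, adjusted p = 8.70e-05) and Gabrb2 (-0.64 ± 0.20, adjusted p = 0.00841) fell as well. Gabra5, the alpha subunit known for tonic inhibition in hippocampus, was not called (0.09 ± 0.22, adjusted p = 0.758). It lay at 27.9, 31.0 and 54.3 CPM in sham and at 20.8, 33.4 and 104 CPM at 24 h, so its 24 h libraries spread to both sides of the sham range. Gabrg1, Gabra2, Gabra4 and Gabrb1 are neighbours on chromosome 5, and Gabra4 and Gabrb1 overlap by 196 bases on opposite strands. Whether the counting used strand is not given, so reads in that overlap cannot be assigned with certainty.

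The 2 GABA-B subunits, which work as a pair, differed at 24 h. Gabbr1 lay at 998, 1093 and 1163 CPM in sham and at 566, 789 and 1089 CPM at 24 h (-0.39 ± 0.07, adjusted p = 5.84e-06), with 10 of 12 libraries under the sham range. Gabbr2 lay at 317, 385 and 490 CPM in sham and at 256, 399 and 647 CPM at 24 h (0.05 ± 0.10, adjusted p = 0.721). Its 24 h libraries surrounded the sham range. The ratio of the pair is tested below.

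**Figure D2:**
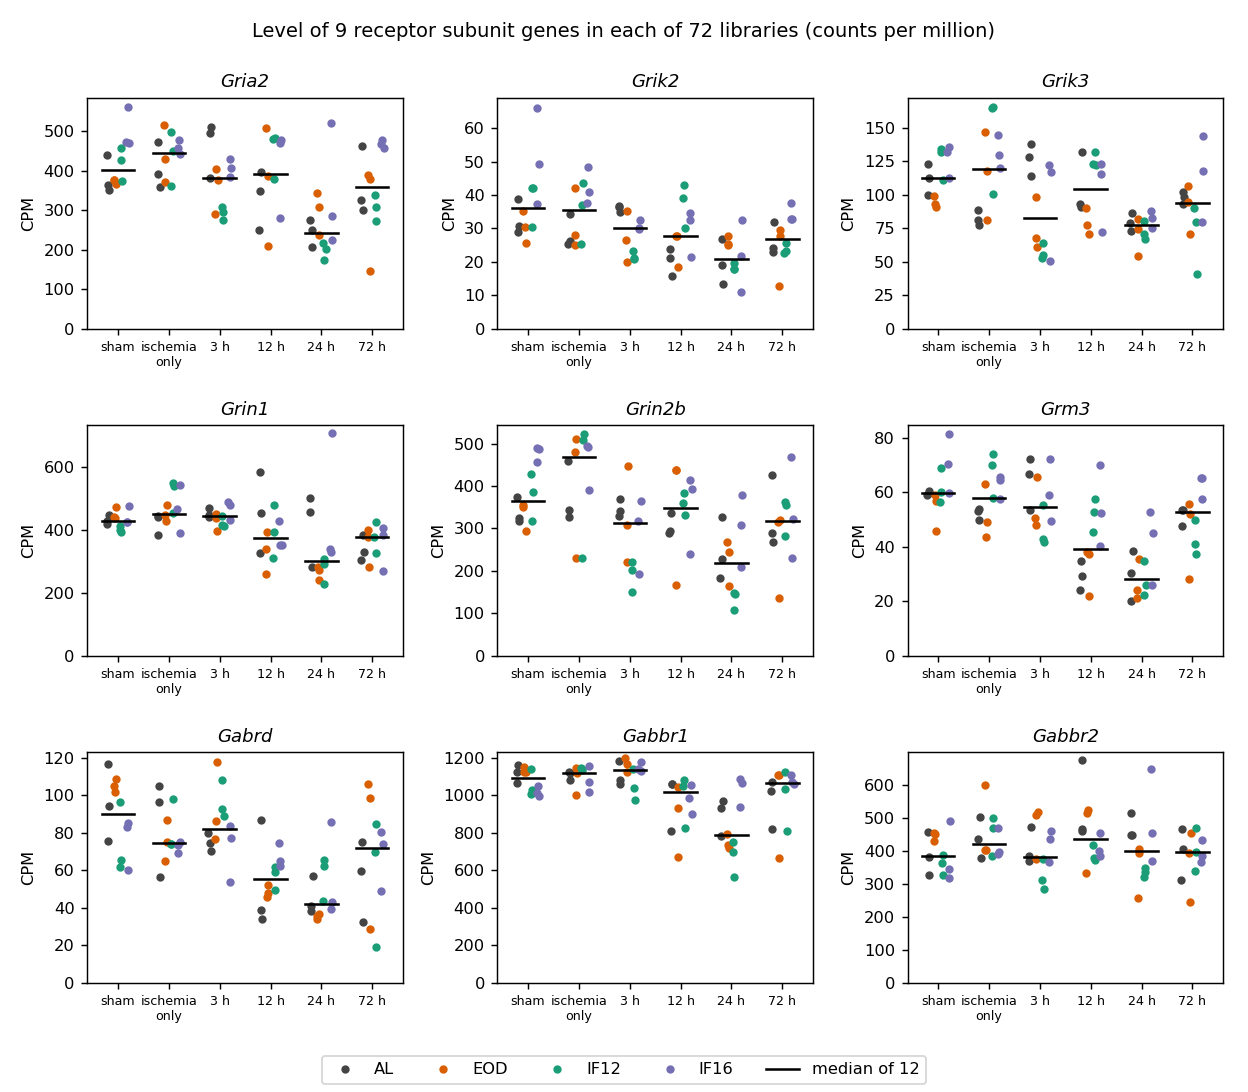
CPM (linear axis from 0) of 9 receptor genes by stage in each of the 72 libraries, coloured by regimen, with a line at the median of the 12 libraries of a stage. At 24 h Grik3 lies between 54.0 and 88.3 CPM, below its sham libraries, while Gabbr2 lies on both sides of its sham range.

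The earlier stages had fewer calls. Over the same libraries 6 of 9 markers of striatal medium spiny neurons were lower at 3 h and 9 of 9 at 12 h, with medians of -0.97 and -1.56 on the log2 scale, beside receptor medians of -0.11 and -0.15. Of 12 general neuron markers 0 were called at 3 h and 1 was lower at 12 h, with medians of 0.09 and -0.12. With the neuron markers as a covariate 6 members were lower at 3 h, against 13.2% of all genes lower, and at 12 h Grik2 and Grm3 were lower and Gabbr2 higher, against 15.8% of all genes called in either direction. With region markers as covariates Grm3 was lower at 12 h, against 3.16% of all genes lower. At 3 h those covariates left 0 members lower and 3 higher, against 8.10% of all genes lower and 15.7% called. Without covariates 12.5% of the members were lower at 3 h, near the 11.1% of all genes. At 3 h the members that fell were Grik3 (-0.42 ± 0.12, adjusted p = 0.00839), Grin2b (-0.42 ± 0.16, adjusted p = 0.0433), Gabrg3 (-0.41 ± 0.13, adjusted p = 0.0212) and Grik2 (-0.39 ± 0.13, adjusted p = 0.0267). Their 3 h libraries overlapped sham, with Grik3 at 50.6, 83.1 and 138 CPM. Grik3 kept its call without any library, while Grin2b kept it in 54 of 72 fits. The count was 1 without sham AL replicate 3, sham IF16 replicate 3 or 3 h EOD replicate 2, and 2 without sham EOD replicate 1, sham IF12 replicate 3 or 3 h IF16 replicate 1.

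At 12 h Gabrd had the lowest log2 fold change (-0.63 ± 0.17, adjusted p = 0.00673), with 33.9, 55.7 and 86.8 CPM and each of the 12 libraries under the sham median. Grm3 was next (-0.60 ± 0.11, adjusted p = 0.000178) at 21.9, 39.2 and 69.8 CPM, with 8 of 12 libraries under the sham range. Grm4 (-0.51 ± 0.17, adjusted p = 0.0241), Grik2 (-0.45 ± 0.13, adjusted p = 0.0105), Gabrg3 (-0.36 ± 0.13, adjusted p = 0.0417), Grin2c (-0.35 ± 0.12, adjusted p = 0.0295) and Grik5 (-0.29 ± 0.09, adjusted p = 0.0149) also fell. Grik5 was not called at 24 h. Without 12 h AL replicate 3 the count was 4.

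The level at 72 h was also compared with that at 24 h directly. In that comparison 12 members were higher and 1 lower, against 12.9% of all genes higher and 11.6% lower, with a median of 0.31 over the 32 beside 0.03 over all genes. The higher genes were Gria2, Gria3, Gria4, Grin2b, Grm3, Grm5, Grm7, Gabra2, Gabra3, Gabra4, Gabrb1 and Gabbr1. Grm3 rose by 0.69 ± 0.12 on the log2 scale (adjusted p = 1.49e-05), to 28.2, 52.7 and 65.1 CPM. Gria3 rose by 0.57 ± 0.15 (adjusted p = 0.00355), to 44.3, 146 and 186 CPM, and Gria2 by 0.42 ± 0.12 (adjusted p = 0.00953), to 146, 359 and 476 CPM. The lowest of these 72 h values all came from EOD replicate 2, the library rich in choroid plexus markers. Grin2d, in contrast, was lower at 72 h than at 24 h (-0.24 ± 0.08, adjusted p = 0.0216), with 43.9, 57.7 and 70.2 CPM at 24 h and 33.7, 48.3 and 59.6 CPM at 72 h. It kept that call in 68 of 72 fits without a library. Without the 3 choroid-rich libraries 20 members were called between 72 and 24 h. The share of all genes called in that fit is not given here. Between the same stages 7 of 12 general neuron markers were higher at 72 h (median 0.21), as were 5 of 9 striatal markers (median 1.05), 3 of 9 cortex markers (median 0.21) and 6 of 7 microglia markers (median 0.74). With the neuron markers as a covariate 3 members were higher and 2 lower, against 22.8% of all genes called in either direction, and with region markers 1 was higher, against 11.9% called.

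Against sham, 8 members were lower at 72 h. They were Gabrg3 (-0.58 ± 0.13, adjusted p = 0.000762), Grik2 (-0.49 ± 0.13, adjusted p = 0.0042), Grm4 (-0.46 ± 0.17, adjusted p = 0.0313), Grin2c (-0.40 ± 0.12, adjusted p = 0.00764), Grik3 (-0.31 ± 0.12, adjusted p = 0.0449), Grm3 (-0.29 ± 0.11, adjusted p = 0.0491), Grin1 (-0.28 ± 0.10, adjusted p = 0.0265) and Grm7 (-0.25 ± 0.10, adjusted p = 0.0472). Gabrg3 lay at 10.4, 20.3 and 34.1 CPM, with 9 of 12 libraries under the sham range, and Grin1 at 269, 377 and 425 CPM, with all 12 under the sham median. Over the 72 fits without a library, Grm7 kept its call in 39, Grm3 in 44 and Grik3 in 57. The count depended on single libraries. It was 3 without the 3 choroid-rich libraries (Grik2, Grin2c and Gabrg3), and also 3 without 72 h EOD replicate 2 or 72 h IF16 replicate 2 alone. It was 4 without sham IF16 replicate 3 or 72 h IF12 replicate 2, and 5 without sham AL replicate 2, sham EOD replicate 1, sham IF16 replicate 2, 72 h AL replicate 1 or 72 h AL replicate 3.

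Subunit balance was examined with 3 quantities formed within a library, so that scaling between libraries drops out. The makeup of the slice in cells and regions does not drop out, and its part in these quantities was not tested. The 3 quantities were compared with sham by permutation of stage labels within regimens (100000 draws, two-sided), with adjusted p over the 15 tests. The log2 ratio of Gabbr2 to Gabbr1 FPKM lay at -2.56, -2.28 and -1.84 in sham and at -2.28, -1.78 and -1.54 at 24 h. Its mean rose by 0.434 at 24 h and by 0.366 at 12 h (permutation adjusted p = 0.0045 for each). The mean at 24 h was above the sham mean in each of the 4 regimens, with some overlap between libraries, and both calls held without any single library. At 72 h the difference was 0.101 (permutation adjusted p = 0.201).

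The share of Gria2 in the summed FPKM of Gria1 to Gria4 was 25.7% on average in sham, with a range of 21.6 to 29.8%, and 22.9% at 24 h, with a range of 17.9 to 27.0%. The difference of -2.83 percentage points passed the test (permutation adjusted p = 0.025). The difference of -2.03 at 12 h had a permutation adjusted p of 0.0398, but 0.111 with labels permuted over all 24 libraries, which ends the call. The ranges overlapped at both stages. The share and its changes rest on the gene lengths implied by the FPKM. These were 44.0% of the annotated exons for Gria2, and 56.7%, 34.9% and 69.9% for Gria1, Gria3 and Gria4. Without sham IF16 replicate 3 the 24 h difference was -2.46 (permutation adjusted p = 0.0508), and the 12 h call was lost in 13 of 24 such repeats, with differences between -2.05 and -1.57. Those left out sham AL replicate 1 or 3, any sham IF12 replicate, sham IF16 replicate 2 or 3, or any AL or EOD replicate at 12 h. The log2 ratio of Grin2b to Grin2a, which falls in cortical development, was 2.92 on average in sham, 2.42 at 3 h and 2.33 at 12 h. The difference of -0.591 at 12 h passed (permutation adjusted p = 0.0176). Regimen means went from 3.5 to 2.47 in AL, from 2.82 to 2.28 in EOD and from 2.82 to 2.08 in IF12. In IF16 the mean went from 2.55 to 2.51. The difference of -0.50 at 3 h had a permutation adjusted p of 0.0398, but 0.0513 with labels permuted over all 24 libraries. Its call was lost in 9 of 24 repeats without a library, with differences between -0.519 and -0.381. Those left out sham AL replicate 1 or 2, sham IF12 replicate 1, sham IF16 replicate 3, 3 h EOD replicate 3, 3 h IF12 replicate 3 or any IF16 replicate at 3 h. At 24 h the difference was -0.466 (permutation adjusted p = 0.0706).

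**Figure D3:**
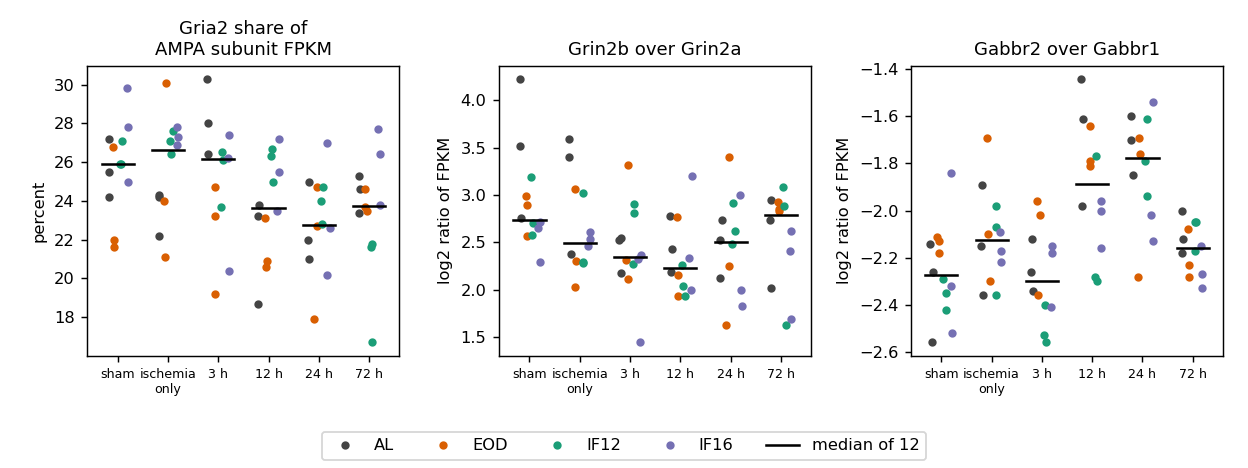
The share of Gria2 in the FPKM of the 4 AMPA subunit genes (percent), and the log2 ratios of Grin2b to Grin2a and of Gabbr2 to Gabbr1 FPKM, by stage in each of the 72 libraries, coloured by regimen with a line at each stage's median. The Gabbr2 to Gabbr1 ratio has medians of -2.28 in sham and -1.78 at 24 h.

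Within single regimens, with 3 libraries against 3, Grm3 was the member called at 24 h in each of the 4. Its log2 fold change was -1.01 ± 0.19 in AL, -1.01 ± 0.27 in EOD, -1.15 ± 0.17 in IF12 and -0.77 ± 0.23 in IF16. In AL 4 members fell (Gria4, Grik3, Grm3 and Gabrg1), against 3.0% of all genes. In EOD 6 fell (Grik5, Grin1, Grin2c, Grm2, Grm3 and Gabrd), against 3.5%. In IF12 23 fell, against 20.4%, and in IF16 4 fell (Gria4, Grik2, Grm3 and Grm7), against 7.93%. The lowest values in IF12 were those of Grin2b (-1.49 ± 0.24, adjusted p = 0.000349) and Gabrb2 (-1.46 ± 0.27, adjusted p = 0.000733). The lowest in EOD was that of Gabrd (-1.57 ± 0.32, adjusted p = 0.017), and Grik2 was lowest in IF16 (-1.23 ± 0.29, adjusted p = 0.0121).

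These counts rest on few libraries. In AL the count dropped to 1 on leaving out sham replicate 2 or 3 or 24 h replicate 2 or 3. It became 7 without replicate 1 or 3 of 72 h, 8 without replicate 2 of 12 h and 10 without replicate 1 of 24 h. In EOD 0 remained called when replicate 2 or 3 of sham, or replicate 1 or 3 of 24 h, was left out. There were 2 when sham replicate 1 was left out, 3 for ischemia replicate 3, 3 h replicate 2 or 12 h replicate 2, and 10 for 72 h replicate 2. In IF16 leaving out sham replicate 3 gave 0, sham replicate 2 gave 1, replicate 1 of 24 h gave 2, replicate 2 of 12 h gave 8 and replicate 3 of 24 h gave 14. In IF12 it lay between 17 and 25. A larger count in IF12 does not show a difference between regimens. The test of that difference covered the 15 stage by regimen terms and called 0 members, against 0.0984% of all genes (edgeR). The smallest adjusted p was 0.076, for Grik3. An unadjusted p under 0.05 was found for 12 members, and the share of all genes with such a p is not given here. DESeq2 called 5 (Grik3, Grik5, Grm8, Gabrb2 and Gabrg3), and edgeR called 4 without the 3 choroid-rich libraries (Gria4, Grik3, Grm8 and Gabrb2) and 3 without 72 h EOD replicate 2 alone. It called 1 without ischemia EOD replicate 1 or 2, ischemia IF12 replicate 2, 24 h AL replicate 1 or 3 h IF16 replicate 1. The share of 0.0984% belongs to the main fit, and the shares of all genes in these other fits are not given here. The counts of the other fits therefore cannot be compared with all genes.

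Summed over the 4 regimens, members were called against sham 0 times after ischemia alone, 10 times at 3 h, 1 time at 12 h, 37 times at 24 h and 10 times at 72 h. The matching shares of all gene tests called lower were 0.00305%, 5.03%, 0.154%, 8.71% and 2.94%. The 10 calls at 3 h were all in IF12, where 16.0% of all genes were called lower. The call at 12 h was Grm3 in AL, where 0.48% of all genes were called lower. The 10 calls at 72 h were in IF12, 9 of them lower and Gabra5 higher (1.10 on the log2 scale), against 10.8% of all genes lower and 13.7% higher. The 12 h sum was 0 without any of the 3 sham AL libraries, 12 h AL replicate 1 or 12 h AL replicate 3, 2 without 12 h AL replicate 2 and 4 without 72 h EOD replicate 2. The 72 h sum was 5 without sham IF12 replicate 2, 6 without sham IF12 replicate 3 or 72 h IF12 replicate 2, and 16 without 72 h IF12 replicate 1.

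Fasting itself was compared with ad libitum feeding on average over the 6 stages and within each. On average no member was called by edgeR for EOD, IF12 or IF16, where 0.0%, 0.0% and 0.00579% of all genes were called. The members with an unadjusted p under 0.05 numbered 6, 4 and 9. The share of all genes with such a p is not given here, so these 3 counts cannot be compared with it. The members nearest to the threshold in IF16 were Grm3 (0.34 ± 0.09, adjusted p = 0.116) and Grik2 (0.34 ± 0.11, adjusted p = 0.124). Without the 3 choroid-rich libraries Gria4, Grik2 and Grm3 were called higher in IF16. The share of all genes called in that fit is not given here, so this count cannot be compared with it. With edgeR 1 member was called without 72 h EOD replicate 2 alone or 12 h IF16 replicate 2, and 2 without 24 h IF16 replicate 1.

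Within stages, 7 of 576 tests of a fasting regimen against AL passed, and 0.496% of all gene tests did. The number was 3 with gene length offsets and 21 with DESeq2. The share of 0.496% belongs to the main fits alone. All 7 were lower values in IF12 at 3 h, where 5.85% of all genes were called lower. Gabrb2, a GABA-A beta subunit, was at 102, 90.1 and 109 CPM in the 3 AL libraries at 3 h and at 45.6, 31.4 and 26.0 CPM in the 3 IF12 libraries (-1.55 ± 0.33, adjusted p = 0.0325). The IF12 sham libraries had 81.8, 109.8 and 99.9 CPM. Grik3 was at 128, 114 and 138 CPM in AL and at 64.3, 55.1 and 52.5 CPM in IF12 (-1.15 ± 0.27, adjusted p = 0.0342). The groups did not overlap for either gene. Grm5 (-0.94 ± 0.21, adjusted p = 0.0325), Gria3 (-0.75 ± 0.20, adjusted p = 0.0383), Grik2 (-0.72 ± 0.17, adjusted p = 0.034), Gria2 (-0.66 ± 0.14, adjusted p = 0.0325) and Grm7 (-0.50 ± 0.13, adjusted p = 0.037) were the others.

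Some other measures also separated the same 6 libraries. The 9 striatal neuron markers summed to 2003, 1896 and 1867 CPM in AL and to 907.5, 1024 and 732 CPM in IF12 at 3 h. The 9 cortex markers summed to 1220, 1136 and 1319 CPM and to 945, 841 and 780.5 CPM, and the 7 oligodendrocyte markers to 6500, 6006 and 7434 CPM and to 14814, 9485 and 10506 CPM. Sums of astrocyte and thalamus markers were also higher in each IF12 library, and sums of endothelial and infiltrating myeloid markers lower. The 12 general neuron markers overlapped, at 8702, 8295 and 10546 CPM in AL and at 9067, 8577 and 8034 CPM in IF12. The remaining marker lists overlapped too. The part of these markers in the result was not tested. The 7 calls fell to 0 without any of the 3 IF12 libraries at 3 h, or without AL replicate 1 or 3 at 3 h. They numbered 11 without 3 h EOD replicate 1 or 3 h IF16 replicate 1, 12 without 3 h EOD replicate 2, 13 without sham IF12 replicate 1 and 14 without sham AL replicate 3.

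Genes around the receptors were read from 2 further lists. Of 17 genes for transmitter synthesis and transport, 13 were lower at 24 h, with a list median of -0.48, against 24.3% of all genes lower. Slc1a2, the main glutamate transporter of astrocytes, went from 1998, 2709 and 3524 CPM to 880.3, 1369 and 2176 CPM (-0.89 ± 0.12, adjusted p = 2.74e-08). Gad2 and Slc32a1, which make GABA and load it into vesicles, fell by 0.65 and 0.58 (adjusted p = 0.000358 and 0.00049). Slc17a7, the vesicular glutamate transporter of cortical neurons, was not called (0.07 ± 0.12, adjusted p = 0.631), at 1200, 1817 and 2598 CPM in sham and 1075, 1706 and 3172 CPM at 24 h. Of 37 auxiliary subunits and scaffolds, 27 were lower and 1 higher, with a list median of -0.39. Dlg4, the PSD-95 scaffold of excitatory synapses, fell by 0.49 (adjusted p = 6.05e-07). Homer3, a scaffold of group I metabotropic receptors, in contrast rose by 0.95 ± 0.28 (adjusted p = 0.00398). At 72 h the numbers lower were 9 of 17 and 20 of 37, against 11% of all genes, with Slc6a13, a GABA transporter outside neurons, and Homer3 and Kctd12 higher.

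Markers of cell types and regions were read at the same stages. At 24 h the 9 markers of striatal medium spiny neurons were all lower, with a median log2 fold change of -2.79, and their sum went from 731, 2003 and 3265 CPM in sham to 219.7, 398 and 918 CPM. Of 12 general neuron markers 8 were lower, with a median of -0.26, and their sum went from 7645, 8674 and 9820.5 CPM to 5184, 6660 and 8520 CPM. Of 9 cortex markers 7 were lower and 1 higher, of 9 hippocampus markers 0 were lower and 1 higher, and of 8 thalamus markers 1 was higher. Of 9 astrocyte markers 4 were lower and 3 higher, and of 7 markers of infiltrating myeloid cells 6 were higher. Of 7 microglia markers 3 were higher and 1 lower, of 7 oligodendrocyte markers 2 were higher and 1 lower, and of 5 precursor markers 2 were lower. Of 6 endothelial markers 3 were higher and 1 lower, and no choroid plexus or erythrocyte marker was called. No marker was at 0 in all libraries. At 72 h the 9 striatal markers were still lower, with a median of -1.62, beside 1 of 12 neuron and 1 of 9 cortex markers. Markers higher at 72 h were 6 of 7 of microglia (median 0.82), 5 of 7 of infiltrating myeloid cells, 4 of 9 of astrocytes, 3 of 6 of endothelium, 3 of 9 of hippocampus and 1 of 7 of oligodendrocytes.

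**Figure D4:**
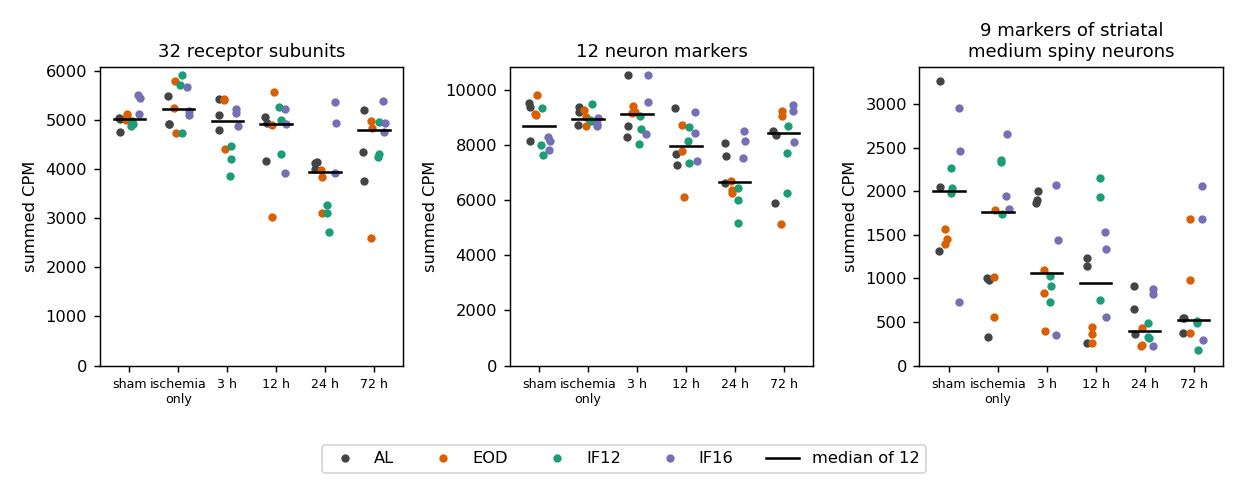
Summed CPM (linear axes from 0) of the 32 receptor genes, of 12 general neuron markers and of 9 markers of striatal medium spiny neurons by stage in each of the 72 libraries, coloured by regimen with a line at each stage's median. The striatal sum has medians of 2003 CPM in sham and 398 CPM at 24 h, and the neuron sum 8674 and 6660 CPM.

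The receptor calls were repeated with such markers in the model. With the neuron markers as a covariate 12 members were lower at 24 h and Gabbr2 was higher, against 17.0% of all genes lower and 32.3% called in either direction. The 12 were Gria2, Grik2, Grik3, Grin2b, Grin2c, Grm3, Grm5, Grm7, Gabrb1, Gabrg1, Gabrg3 and Gabbr1, and the median of the 32 was -0.29. With striatum, hippocampus and thalamus markers as covariates Grm3 alone was lower, against 0.822% of all genes, and the median was -0.22. The striatal markers and 8 of the 12 general neuron markers themselves fell at that stage. In both fits the makeup of the slice and the injury therefore cannot be told apart. At 3 h the same covariates left 0 members lower and 3 higher (Grik1, Gabra3 and Gabrd), against 8.10% of all genes lower and 15.7% called.

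Receptor genes are long, so gene length was examined. Over 17268 genes the log2 fold change at 24 h fell with the exonic length implied by the deposited FPKM, with a Spearman coefficient of -0.18, and it was -0.18 with genomic span over 17150 genes. These coefficients run across genes, which share libraries and are not independent. With genes split by exonic length into 5 groups of equal size, 13.9%, 18.2%, 24.8%, 29.6% and 35.1% were called lower from the shortest to the longest. The members lay in the 3 groups of longer genes, where 5 of 5, 6 of 11 and 11 of 16 were lower. In the group of longest genomic span, 18 of 25 members were lower, against 37.7% of all genes there. Among the 32 the coefficient was -0.13 with exonic length and -0.18 with span. At 3 h it was -0.31 and -0.35 among the 32, beside -0.16 and -0.12 over all genes. With gene length offsets in the fit the same 22 members were lower at 24 h, with a median of -0.49, against 24.0% of all genes. The offsets used the length implied by the deposited FPKM, which was 19.2 to 116% of a member's annotated exons. They therefore cannot show whether an effect of annotated exon length was removed. At 3 h the offsets gave 4 members lower and Grik1 higher, against 11.3% of all genes lower and 22.9% called. Within regimens at 24 h they gave 7 calls in AL in place of 4 and 2 in IF16 in place of 4. The shares of all genes called with the offsets within a regimen are not given here.

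**Figure D5:**
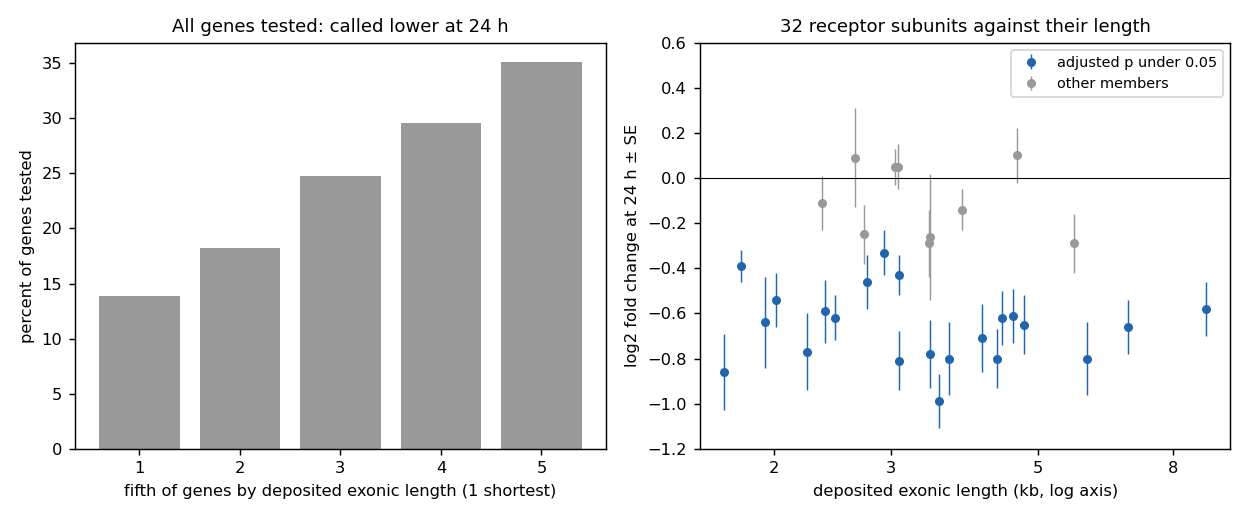
Left, percent of all tested genes called lower at 24 h against sham in 5 equal groups of exonic length, rising from 13.9% to 35.1%. Right, log2 fold change at 24 h with its standard error for the 32 receptor genes against exonic length in kilobases (log axis), with called members in blue and the 10 others in grey.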

How the data were processed

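RNA from 72 brain samples was sequenced as mRNA. Per the labels, RNA integrity numbers were over 7. The authors deposited raw counts for each Ensembl gene in 1 table, and they also deposited FPKM values, which equal the count divided by a gene length and the library total. The submitters' processing notes name CASAVA, TopHat2 and DESeq2 with GRCm38/mm10, while how reads were counted, with which versions and whether by strand, is not given in the sources used here. Symbols and coordinates came from GENCODE M21, which named 34490 of the 35275 identifiers, and promoter windows from RefSeq GRCm38.p6.

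Counts were tested with edgeR 4.0.16 in R 4.3.3, using TMM scaling (factors 0.912 to 1.09), filterByExpr and the quasi-likelihood F test with Benjamini-Hochberg adjustment over all genes tested. Regimen averages, fasting averages and the interaction came from 1 fit of 72 libraries, stage contrasts within a regimen from its 18 libraries, and fasting contrasts within a stage from its 12 libraries. Fits were tested on simulated data. Alternatives were DESeq2 1.42.0, other scaling, no filter, a replicate block, length offsets, marker covariates, other library sets and leaving out each library.

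The members, lists and tests were chosen with earlier results of these data known. Some related genes are not reported here. Genes given with full values are the 3 of each class with the smallest adjusted p at 24 h, any called against the direction of the rest, and any called in a fasting test; the other members are given by counts and ranges, or were named after their values were seen. Within a group, the 72 pairs of libraries differed by more than counting noise and 0 were identical. Same-numbered libraries had a mean correlation of -0.00782 (range -0.685 to 0.703) in their deviations from group means. That mean shows no pairing by replicate number common to all groups, and cannot show whether some groups were paired. Precision is set by the number of libraries more than by depth, and at these totals 1 CPM is many reads.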

Additional observations from a re-analysis of the deposited data

How the results depend on the processing

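Over 9234 recomputed values of named members, 73 changed sign, 3 of them of values called in the main fit or in the alternative. With region marker covariates Gabrd was 0.33 at 3 h (adjusted p = 0.0375) and 0.09 at 24 h, and Grik3 was 0.04 at 72 h. In the main fit Gabrd was not called at 3 h (-0.06 ± 0.17, adjusted p = 0.848). The replicate block left the averaged counts at 4, 7, 22, 8 and 13, and moved the 24 h sum over regimens from 37 to 33 and the fasting contrasts from 7 to 6. It gave 3 in EOD at 24 h, in place of 6, and changed the side of the threshold for 2 of the within-library quantities below. The cause of the changes below was not tested unless the setting itself gives it. Counts below are not set against the share of all genes called under the same setting.

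With the neuron covariate the counts were 3 at 12 h, 13 at 24 h, 3 at 72 h and 5 for 72 against 24 h, and with region covariates 1, 1, 0 and 1. At 72 h the count was 5 with no filter and 5 with block and length offsets. Without the 3 choroid-rich libraries, an alternative chosen after seeing the data, it was 3 at 72 h, 20 for 72 against 24 h, 3 for IF16 on average and 4 for the interaction, for which DESeq2 gave 5.

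The sum over regimens at 3 h was 6 with block and length offsets and 17 with only the compared groups. At 12 h it was 5 with DESeq2, 3 with the compared groups and 4 with 72 libraries, and at 72 h 5 with each of the latter. In AL at 24 h it was 11 with DESeq2, 8 with no filter and 7 with length offsets. In EOD the compared groups alone gave 10. In IF16 it was 7 with DESeq2, 2 with length offsets, 2 with these and the block, and 0 with the compared groups. Fasting contrasts within a stage numbered 21 with DESeq2, 12 with no filter, 3 with length offsets, 0 with these and the block, and 3 with 72 libraries.

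As differences in medians, the Gria2 share was 0.744 after ischemia, 0.253 at 3 h and -2.23 at 12 h (permutation adjusted p = 0.0693), and Grin2b to Grin2a was 0.0499 at 72 h and -0.393 at 3 h (0.0666). The Gria2 share at 12 h (-2.03) had a permutation adjusted p of 0.111 with labels permuted freely and 0.0598 with the replicate block, and Grin2b to Grin2a at 3 h (-0.50) 0.0513 and 0.0598.

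Without 1 library each, the averaged counts ran over 0 to 0 (ischemia), 1 to 4, 4 to 8, 22 to 24, 3 to 11 and 11 to 19, fasting averages over 0 to 0, 0 to 0 and 0 to 2, and the interaction over 0 to 3. Sums over regimens ran over 0 to 0, 7 to 15, 0 to 4, 31 to 47 and 5 to 16. At 24 h the count ran over 1 to 10 in AL, 0 to 10 in EOD, 17 to 25 in IF12 and 0 to 14 in IF16, and fasting contrasts over 0 to 14. From ischemia to 72 h the Gria2 share ran over -0.398 to 0.42, -1.02 to -0.0102, -2.41 to -1.57, -3.21 to -2.38 and -2.52 to -1.52. Grin2b to Grin2a ran over -0.346 to -0.143, -0.581 to -0.381, -0.67 to -0.473, -0.551 to -0.347 and -0.43 to -0.254. Gabbr2 to Gabbr1 ran over 0.107 to 0.184, -0.0416 to 0.0257, 0.324 to 0.404, 0.406 to 0.475 and 0.0735 to 0.14.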

Other observations

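The Gabbr2 to Gabbr1 ratio rose at 12 and 24 h, where 1 and 8 of the 12 general neuron markers were lower. With the neuron markers as a covariate Gabbr2 itself was called higher at 12 h and 24 h, where 15.8% and 32.3% of all genes were called. Without a covariate Gabbr2 was not called at 12 h (0.18 ± 0.10, adjusted p = 0.194) or 24 h (0.05 ± 0.10, adjusted p = 0.721). It was not called at either stage with region markers as covariates. At 24 h the libraries with the highest level of several receptor genes were those of IF16 replicate 3 (Gria2 519 CPM, Grm3 52.8 CPM, Gabra5 104 CPM), whereas Grin1 and Gabbr1 were highest in IF16 replicate 1 (708 and 1089 CPM).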
